A study of Homo sapiens with 34 samples.

Results

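The 10 human Frizzled receptor genes, FZD1 to FZD10, were followed through the differentiation of pluripotent stem cells into mesendoderm. They were taken as the rows whose gene symbol was FZD1 to FZD10, which gave 10 of the 37951 genes listed, each with 1 row. All 10 passed the filter on low counts and were tested together with the other genes, 17895 in all. This rule used no expression value, although the family was picked with earlier results of these data known.

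The libraries came from ESI017, an established line of human pluripotent stem cells (hPSCs), wild type in every library used here. Cells received one of 4 primitive streak (PS) treatments for 24 h, and in the 48 h conditions one of 3 second-day media. Each of the 17 conditions had 2 replicate libraries, 34 in all, made from the poly(A) part of the total RNA of a whole culture. The study calls them biological replicates, without saying what set them apart, and the p-values measure the spread between these libraries.

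The treatment DE(a), a first step towards definitive endoderm, held activin A at 100 ng/ml and CHIR99021 at 2 µM. Activin A acts through SMAD2 and SMAD3, and CHIR99021 inhibits GSK3 and so activates canonical Wnt signalling inside the cell. Anterior PS (APS) treatment held activin A at 30 ng/ml with bFGF at 20 ng/ml and CHIR99021 at 4 µM. Mid PS (MPS) treatment kept that activin A and bFGF, raised CHIR99021 to 6 µM and added BMP4 at 40 ng/ml. Posterior PS (PPS) treatment was MPS treatment without activin A. For definitive endoderm, the day 2 medium DE(b) combined activin A at 100 ng/ml with the BMP receptor inhibitor LDN-193189 at 250 nM. Paraxial mesoderm (PM) medium held the activin receptor inhibitor A-8301 at 1 µM, bFGF at 20 ng/ml and LDN-193189 at 250 nM. The labels and methods give no CHIR99021 for PM medium, whereas one of the study's legends also lists it. The study's main text likewise describes Wnt activation on day 2 as part of PM induction. Lateral mesoderm (LM) medium held BMP4 at 30 ng/ml, A-8301 at 1 µM and IWP2 at 4 µM, the last of which blocks the secretion of Wnt ligands. Every day 1 treatment was combined with every day 2 medium, and the standard protocols are MPS-LM, APS-PM and DE(a)-DE(b). The control was undifferentiated cells in mTeSR Plus medium, labelled 48 h, whereas the day 1 treatments were given in Essential 6 medium. Comparisons of 24 h conditions with the control therefore also differ in base medium and, per the labels, in time. MPS and PPS treatment differ in activin A alone. In every other pair of day 1 treatments the dose of CHIR99021 differed together with other factors, so their effects cannot be told apart.

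Frizzled proteins are 7-pass membrane receptors that bind Wnt ligands through an extracellular cysteine-rich domain. With the co-receptors LRP5 and LRP6 they stabilise beta-catenin through Dishevelled, and with other partners they act in planar cell polarity. Canonical Wnt signalling induces the PS, and its level on the following day helps to set paraxial against lateral mesoderm. The ubiquitin ligases RNF43 and ZNRF3 remove Frizzleds from the cell surface, and R-spondins oppose them.

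By sequence the family falls into FZD1, FZD2 and FZD7; FZD5 and FZD8; FZD9 and FZD10; FZD3 and FZD6; and FZD4. Coding sequences read from GENCODE v44 (GRCh38) were aligned in pairs, and identical bases are given as a percentage of the shorter coding sequence. This identity was 81.2% between FZD1 and FZD2, 81.1% between FZD2 and FZD7 and 80.7% between FZD1 and FZD7. FZD5 and FZD8 shared 79.2%, FZD9 and FZD10 73.6%, and FZD3 and FZD6 63.2%. Such likeness bears on the measurement, because a read that lies wholly in a shared stretch cannot be given to 1 gene. The longest stretch that FZD1 and FZD2 share is 81 coding bases long, shown here with FZD7, whose bases in capitals differ from the other two.
FZD1: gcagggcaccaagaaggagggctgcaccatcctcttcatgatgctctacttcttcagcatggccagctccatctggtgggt
FZD2: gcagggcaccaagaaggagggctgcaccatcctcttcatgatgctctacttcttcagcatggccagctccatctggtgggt
FZD7: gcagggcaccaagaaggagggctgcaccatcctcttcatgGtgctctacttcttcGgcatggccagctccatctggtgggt
The longest stretch common to FZD5 and FZD8 has 51 coding bases, all alike, and is printed for the same reason.
FZD5: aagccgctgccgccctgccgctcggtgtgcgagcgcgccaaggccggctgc
FZD8: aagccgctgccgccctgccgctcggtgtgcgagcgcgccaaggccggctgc
Identical stretches were short against whole transcripts. The share of a gene's 31-base words that also occur in another Frizzled gene was 4.00% for FZD2, 2.59% for FZD7, 1.57% for FZD1, 1.29% for FZD8 and 1.13% for FZD5. It was 0.476% for FZD9, 0.308% for FZD10 and 0.0136% for FZD4, and no such word was shared by FZD3 or FZD6. FZD2 also shared words with genes outside the family, 7.23% with any gene in all. Counts are uncertain in such stretches.

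In GRCh38, FZD1 (ENSG00000157240) has a single exon at chr7:91264433-91271326 on the plus strand, and FZD9 (ENSG00000188763) a single exon at chr7:73433778-73436120. FZD2 (ENSG00000180340) lies at chr17:44557484-44561262 and FZD7 (ENSG00000155760) at chr2:202033855-202038441, each with 1 exon on the plus strand. FZD5 (ENSG00000163251) lies on the same chromosome as FZD7, at chr2:207762598-207769906 on the minus strand with 2 exons. FZD8 (ENSG00000177283) has 1 exon at chr10:35638247-35642296 and FZD4 (ENSG00000174804) 2 exons at chr11:86945679-86955395, both on the minus strand. FZD10 (ENSG00000111432) has 1 exon at chr12:130162459-130165740 on the plus strand. FZD3 (ENSG00000104290) and FZD6 (ENSG00000164930), both on chromosome 8, have up to 8 exons in a transcript.

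Library totals ranged from 15522780 to 23439799 counts, with a median of 19341117, so 1 CPM, the unit of counts scaled to a common library total, stood for 15.5 to 23.4 counts. Replicates differed by more than counting noise in every condition. The labels were compared with marker genes. The paraxial markers TBX6, MSGN1 and CDX2 summed to 371 to 466 CPM in the 8 PM libraries and at most 81.4 CPM in DE(b) and LM, but already to 494 and 501 CPM in PPS-24h. The lateral markers HAND1, GATA4 and FOXF1 summed to 450 to 2293 CPM in the 8 LM libraries and at most 138 CPM in DE(b) and PM, although GATA4 alone was at 33.7 to 69.3 CPM in LM and 36.6 to 90.4 CPM in DE(b). SOX17, of endoderm, was at 113 to 553 CPM in the 8 DE(b) libraries, whereas FOXA2 there ran from 2.17 CPM in PPS-DE(b) to 125 CPM in DE(a)-DE(b). The third endoderm marker, CXCR4, did not follow the label, at 156 to 335 CPM in PM and 9.25 to 168 CPM in DE(b). SOX17 was also at 72.7 and 3.75 CPM in the 2 DE(a)-PM libraries and at 94.8 and 69.6 CPM in DE(a)-LM. The bulk libraries cannot tell fewer cells of a type from less RNA per cell, and this holds for each level given here.

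Each Frizzled gene had its own distribution over the 17 conditions, and the family as a whole changed its leading member with the stage. The plot of every library shows the values on which the comparisons rest.

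**Figure D1:**
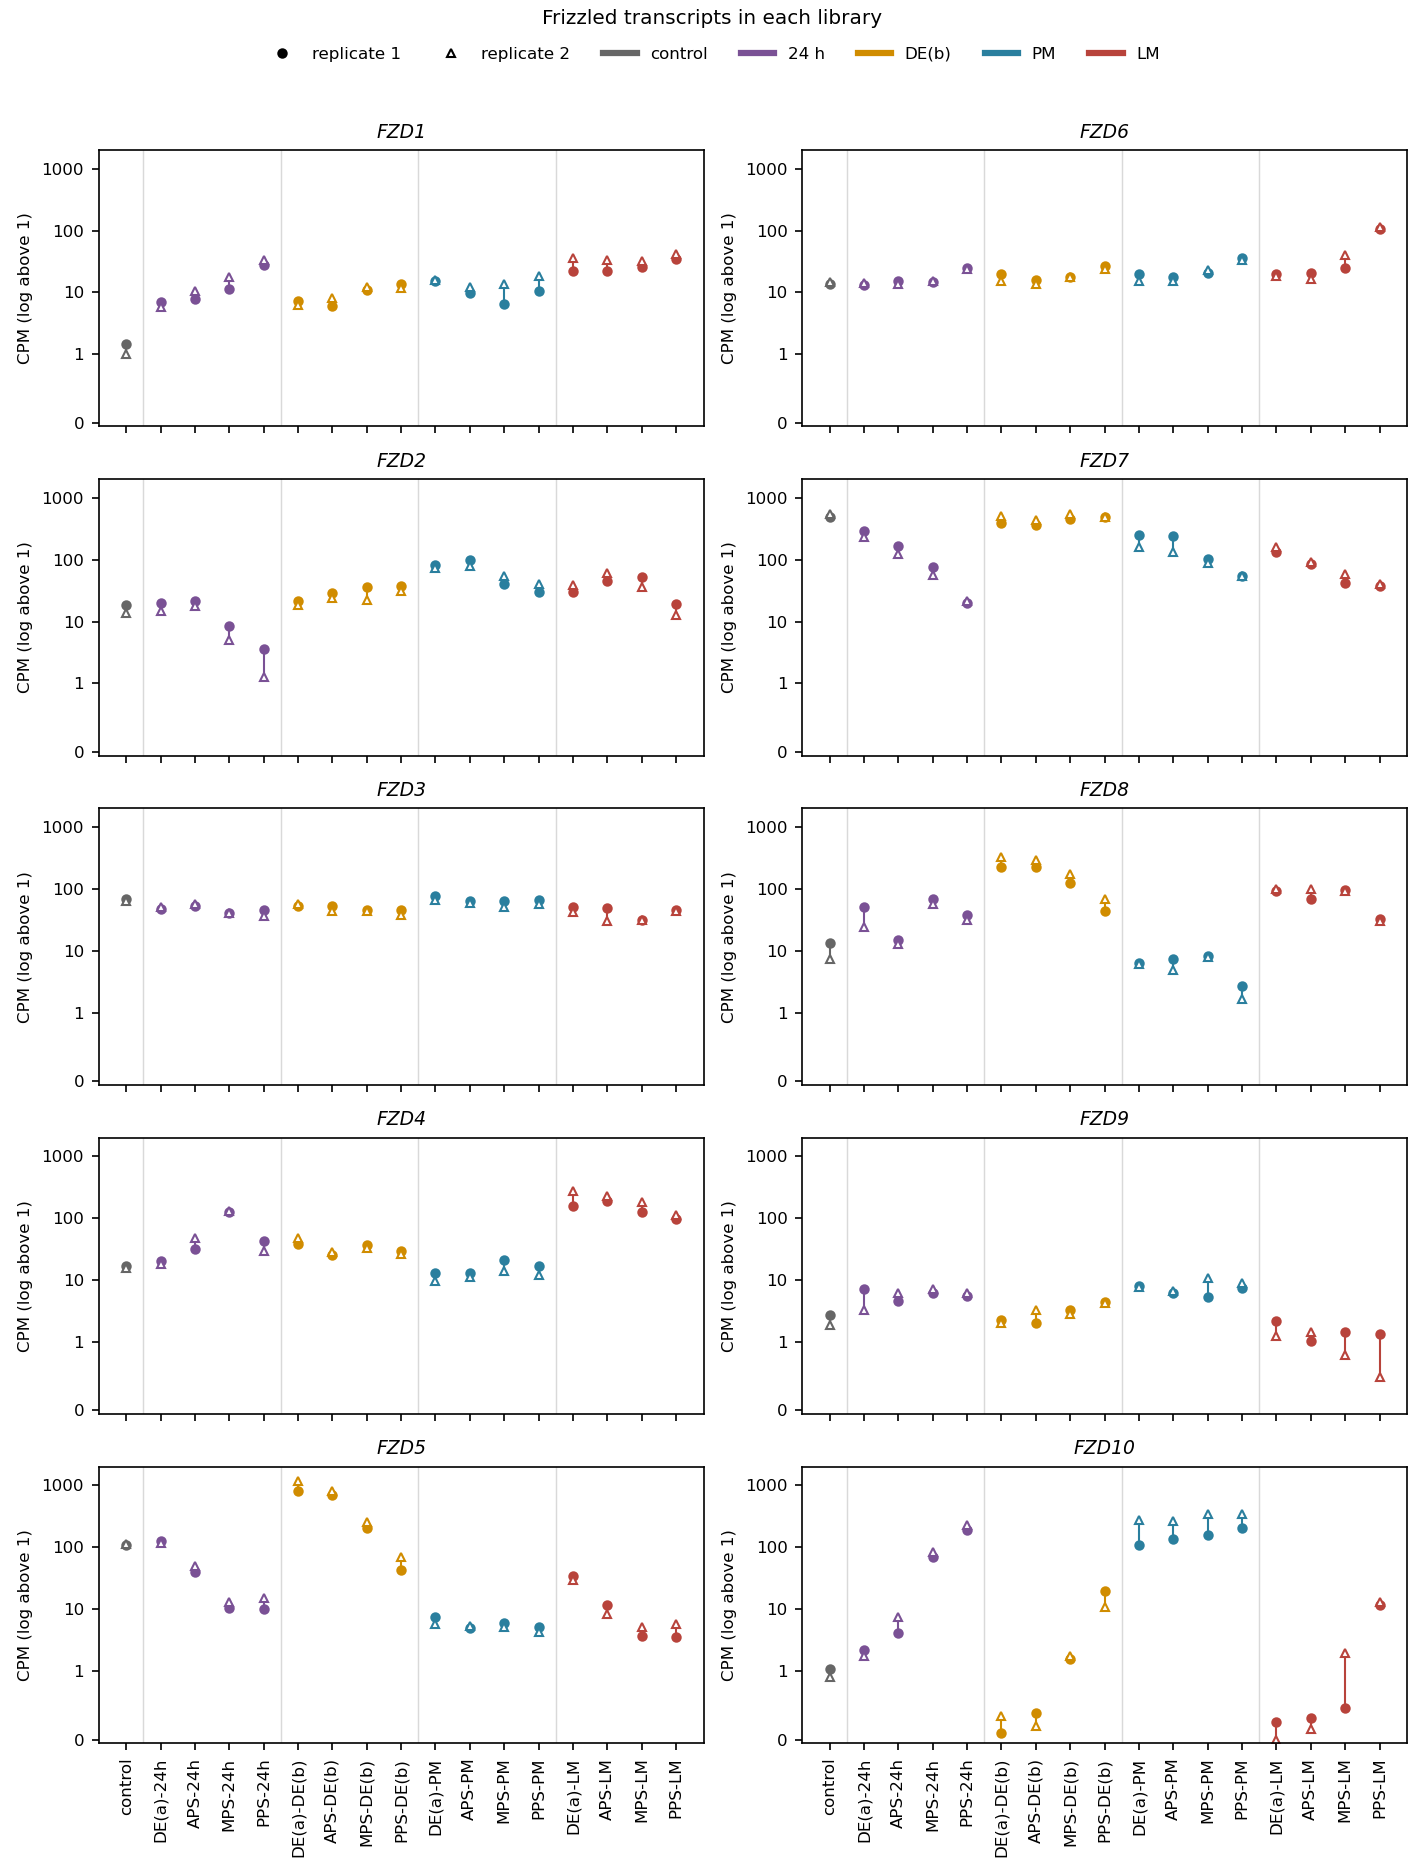
CPM of the 10 Frizzled genes (vertical axis, log scale above 1 CPM and linear below) in each library of the 17 conditions (horizontal axis). Circles are replicate 1, triangles replicate 2, joined by a line, and colour gives the stage. FZD5 peaked in DE(b), FZD10 in PM, FZD4 in LM and FZD6 in PPS-LM, while FZD3 stayed between 30.3 and 76.2 CPM in all 34 libraries.

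Levels of different genes are compared only per kilobase, that is as CPM divided by the median length of the coding transcripts. On this scale FZD7 led the control, with 113 ± 9.94 CPM per kb (SD, n = 2), against 15.9 ± 0.433 for FZD5 in second place. FZD7 held 74.4% and 78.1% of the summed Frizzled level in the 2 control libraries. The undifferentiated cells thus had 1 predominant Frizzled transcript.
FZD7 also led DE(a)-24h, APS-24h, MPS-DE(b), PPS-DE(b) and DE(a)-LM, 6 conditions in all. FZD10 led 6 others: MPS-24h, PPS-24h and the 4 PM conditions. It held 60.3% and 66.4% of the summed level in PPS-24h and 59.2% and 69.9% in PPS-PM. FZD5 led APS-DE(b), where it held 38.5% and 37.9%, as well as DE(a)-DE(b), where it held 42.7% ± 1.72 (SD, n = 2). FZD4 led APS-LM, FZD8 led MPS-LM and FZD6 led PPS-LM, 1 condition each.
Several leaders were not apart from the runner-up. In DE(a)-PM, FZD10 held 25.3% and 54.1% and FZD7 41.9% and 22.2%, so the order differed between the replicates. The same held in APS-PM, with 29.9% and 54.6% for FZD10 and 38.5% and 20.1% for FZD7. In DE(a)-LM the 2 replicates gave 29.2% and 28.3% for FZD7 and 21.2% and 29.7% for FZD4, and in MPS-LM 30.3% and 25.9% for FZD8 and 21.7% and 27.2% for FZD4. In the other 13 conditions the leading gene was ahead in both libraries. Using the merged exon length instead left the leading gene of all 17 conditions in place and swapped lower neighbours in 4 conditions. The summed level itself ran from 62.9 CPM per kb in a library of APS-24h to 382 in one of DE(a)-DE(b).

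**Figure D2:**
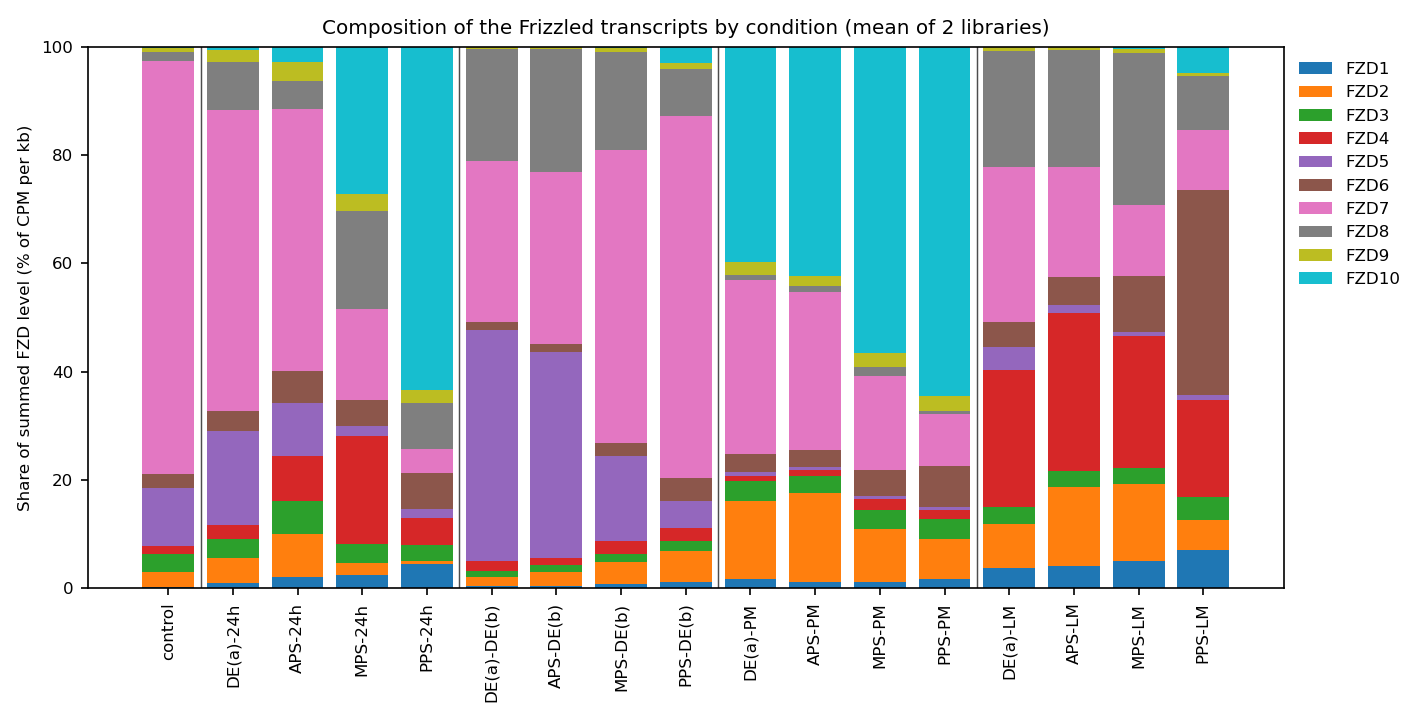
Share of each Frizzled gene in the summed level of the 10 genes (vertical axis, percent of CPM per kb, mean of 2 libraries) in the 17 conditions (horizontal axis). FZD7 fills most of the control bar, FZD10 is the largest part of PPS-24h and of the 4 PM bars, FZD5 of APS-DE(b) and DE(a)-DE(b), and FZD6 of PPS-LM.

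The first comparison asked how the PS treatments altered the receptors of hPSCs. In 24 h of DE(a) treatment, 4 of the 10 genes were called (adjusted p under 0.05 by edgeR's quasi-likelihood test), against a background of 19% of all genes tested. After APS treatment 6 were called (background 24.5%), after MPS treatment 9 (background 30%) and after PPS treatment all 10 (background 29.8%). These 4 comparisons share the 2 control libraries, so their counts are not independent. The median log2 difference of the 10 genes was 0.29, 0.42, 0.91 and 1.00 in the 4 comparisons, with medians over all genes between 0.00 and 0.03.
FZD1 was at 1.45 and 1.01 CPM in the control. It was at 7.01 and 5.80 CPM in DE(a)-24h, 7.86 and 10.7 in APS-24h, 11.4 and 17.8 in MPS-24h and 28.0 and 33.2 in PPS-24h, so every treated library lay above both control libraries. The rise was 2.46 ± 0.41 on the log2 scale (SE) after DE(a) (adjusted p = 0.000107) and 4.65 ± 0.42 after PPS (adjusted p = 2.14e-08).
FZD7 went the other way. It fell from 487 and 551 CPM in the control to 286 and 231 in DE(a)-24h, 167 and 125 in APS-24h, 75.1 and 57.4 in MPS-24h and 20.2 and 21.6 in PPS-24h. The groups did not overlap, and the difference reached -4.61 ± 0.29 after PPS (adjusted p = 1.15e-10). Its smaller fall after DE(a), -0.91 ± 0.25 (adjusted p = 0.0123), was not called without replicate 2 of DE(a)-24h (adjusted p = 0.121) or of the control (0.0890).
FZD10 was at 1.09 and 0.904 CPM in the control and at 191 and 229 CPM in PPS-24h. Its level in MPS-24h was 68.7 and 83.1 CPM, and in APS-24h 4.12 and 7.32. The rise was 7.73 ± 0.66 after PPS (adjusted p = 9.70e-09), 6.34 ± 0.64 after MPS and 2.59 ± 0.63 after APS (adjusted p = 0.00378). The APS call was lost without replicate 2 of APS-24h (adjusted p = 0.0549). In DE(a)-24h, FZD10 was at 2.14 and 1.77 CPM and was not called (adjusted p = 0.357).
FZD5 was at 110 and 114 CPM in the control and 128 and 119 in DE(a)-24h, which was not called (0.24 ± 0.25, adjusted p = 0.599). It fell to 39.8 and 50.4 CPM in APS-24h, 10.4 and 13.0 in MPS-24h and 9.93 and 14.8 in PPS-24h, a difference of -3.16 ± 0.27 in each of the latter comparisons. FZD4 stood highest in MPS-24h, at 124 and 129 CPM against 16.8 and 15.8 in the control (3.05 ± 0.29, adjusted p = 3.73e-08), and FZD8 likewise, at 67.6 and 56.6 CPM against 13.3 and 7.30 (2.69 ± 0.35).
FZD2, at 18.7 and 13.9 CPM in the control, was lowest in PPS-24h, at 3.58 and 1.28 CPM (-2.70 ± 0.38, adjusted p = 1.14e-05). Its fall after MPS, -1.17 ± 0.35 (adjusted p = 0.0135), was lost without control replicate 1 (adjusted p = 0.119) or MPS-24h replicate 2 (0.169). FZD3 fell by 0.69 on the log2 scale after PPS (adjusted p = 0.00248, and 0.0533 without PPS-24h replicate 2) and by 0.61 after MPS. FZD6 rose after PPS, from 13.6 and 14.6 to 25.0 and 23.8 CPM (0.81 ± 0.19, adjusted p = 0.00227). FZD9, at 1.86 to 7.12 CPM in these 5 conditions, was called higher in each of the 4 comparisons with adjusted p between 0.00519 and 0.0353. Those calls were lost without control replicate 2 (adjusted p from 0.0725 to 0.245). For DE(a) and APS the call was also lost without control replicate 1 (0.0746 and 0.0570), and for DE(a) without DE(a)-24h replicate 1 (0.462), for APS without APS-24h replicate 2 (0.176) and for PPS without PPS-24h replicate 2 (0.0746).

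Neighbouring PS treatments were then compared with each other, which leaves the control out. Between DE(a)-24h and APS-24h, 2 of 10 genes were called (background 0.732%). Both were lower in APS-24h, FZD5 with a log2 difference of -1.47 ± 0.25 (adjusted p = 0.00321) and FZD8 with -1.45 ± 0.34 (adjusted p = 0.0421). These calls were lost without DE(a)-24h replicate 1 (adjusted p = 0.0520 and 0.984) or APS-24h replicate 1 (0.0763 and 0.156), and FZD8 also without APS-24h replicate 2 (0.528).
Between APS-24h and MPS-24h, 6 of 10 were called (background 2.93%). FZD10 (3.74 ± 0.53), FZD8 (2.17 ± 0.34) and FZD4 (1.68 ± 0.27) were higher in MPS-24h, with adjusted p of 0.000173, 0.000519 and 0.000752. FZD5 (-1.93 ± 0.26), FZD2 (-1.50 ± 0.35) and FZD7 (-1.12 ± 0.25) were lower. The FZD2 and FZD7 calls were lost without APS-24h replicate 1 (adjusted p = 0.129 and 0.179) or MPS-24h replicate 2 (0.270 and 0.223), and the FZD2 call without APS-24h replicate 2 (0.0536).
Between MPS-24h and PPS-24h, which differ by activin A, 3 of 10 were called (background 6.14%). All 3 of these were lower in PPS-24h. FZD4 was at 43.0 and 29.6 CPM there, against 124 and 129 (-1.87 ± 0.28, adjusted p = 0.000185). FZD7 differed by -1.74 ± 0.26 (adjusted p = 0.000246). FZD2 differed by -1.54 ± 0.39 (adjusted p = 0.0182), a call lost without MPS-24h replicate 1 (0.352) or PPS-24h replicate 2 (0.305). FZD10 was 1.39 ± 0.46 higher in PPS-24h without passing the test (adjusted p = 0.0800), but it was called with the replicate number as a block (0.0218), with only the libraries compared (0.0250) and with no filter (8.31e-11). The block also called FZD1 (0.0197) and FZD6 (0.0409) higher, which made 6 calls. Among all 4 PS treatments an F test called 8 genes (background 18.8%), the exceptions being FZD3 (adjusted p = 0.105) and FZD9 (0.915), and FZD6 (0.0126) lost its call without replicate 1 (0.114) or 2 (0.0762) of PPS-24h.

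On the second day the media set widely different receptor levels. Against the mean of the 4 PS populations at 24 h, the mean of the DE(b) conditions differed in 8 of 10 genes (background 51%), that of the PM conditions in 8 (background 48.2%) and that of the LM conditions in 9 (background 56%). Between media, 8 of 10 genes were called for PM against DE(b) (background 43%), 8 for LM against DE(b) (background 39.6%) and 10 for LM against PM (background 42%). Since so many of all genes were called in these comparisons, the sizes of the differences are given for each gene. The comparisons share conditions and are not independent of one another.

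**Figure D3:**
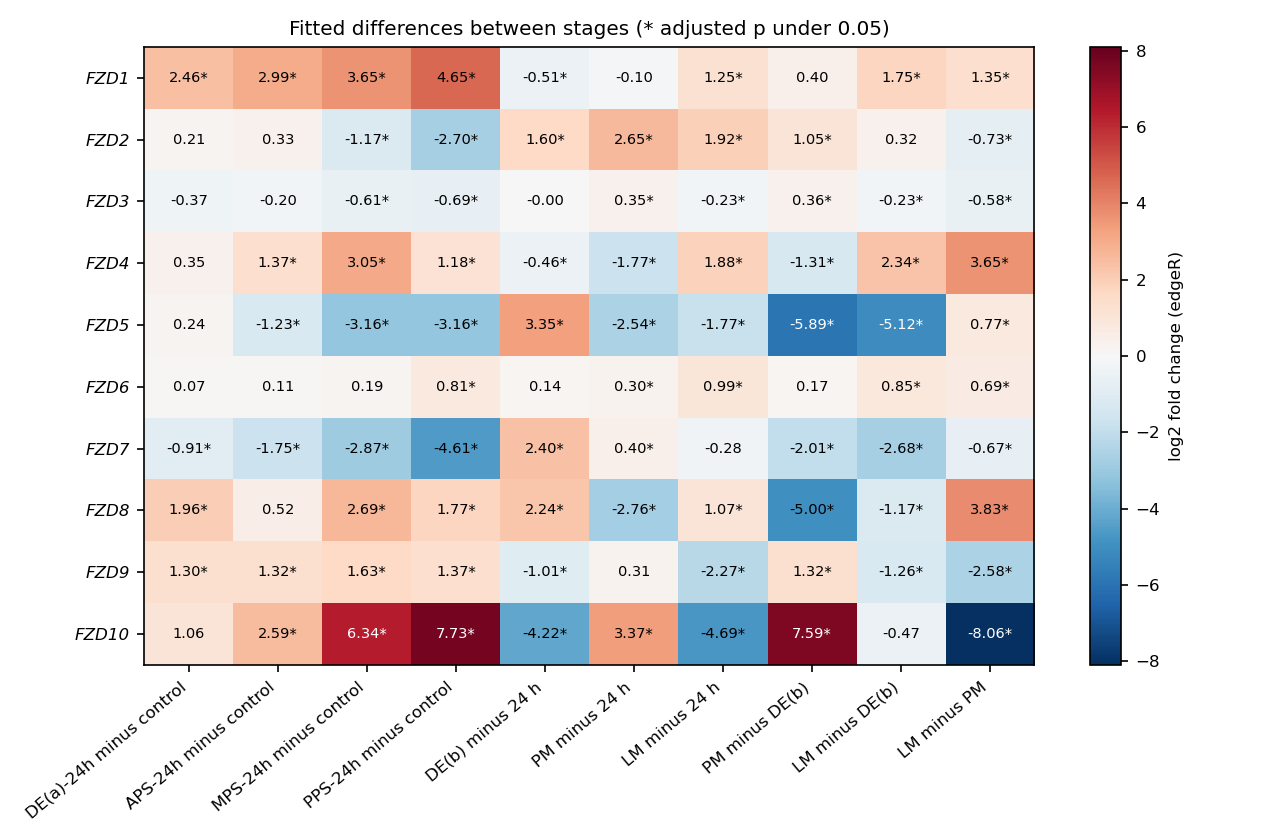
Fitted log2 fold change of each Frizzled gene (rows) in 10 comparisons between stages (columns), printed in each cell, red for higher and blue for lower in the first-named group, with an asterisk for adjusted p under 0.05. FZD10 ran from -8.06 (LM minus PM) to 7.73 (PPS-24h minus control), and FZD3 stayed within -0.69 and 0.36.

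FZD5 and FZD8, close relatives known from anterior endoderm and neural tissue of vertebrate embryos, were highest in DE(b) medium. There FZD5 was at 813 and 1183 CPM after DE(a), 692 and 812 after APS, 201 and 252 after MPS and 42.7 and 69.6 after PPS. In PM it was between 4.28 and 7.34 CPM in all 8 libraries, and in LM between 3.47 and 34.5 CPM. All DE(b) libraries lay above all PM and LM libraries. DE(b) exceeded the 24 h mean by 3.35 ± 0.14 on the log2 scale (adjusted p = 2.71e-14), and against DE(b) the difference was -5.89 ± 0.16 for PM (adjusted p = 1.61e-17) and -5.12 ± 0.15 for LM (adjusted p = 8.70e-17).
FZD8 in DE(b) was at 226 and 331 CPM after DE(a), 226 and 292 after APS, 126 and 177 after MPS and 43.6 and 69.8 after PPS. In PM it lay between 1.67 and 8.33 CPM. Unlike FZD5 it stayed high in LM, at 68.2 to 101 CPM after DE(a), APS or MPS and 32.9 and 30.2 CPM after PPS. The LM and DE(b) ranges overlapped, whereas no PM library reached either. LM exceeded PM by 3.83 ± 0.19 (adjusted p = 2.02e-13), and LM differed from DE(b) by -1.17 ± 0.16 (adjusted p = 3.65e-06). For FZD5 the LM against PM difference was 0.77 ± 0.14. Over the 17 condition means, FZD5 correlated with FZD7 at r = 0.758 (log2(CPM + 1), a description over points that share libraries), which was the second highest of the 45 pairs within the family.

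FZD10, a receptor that activates canonical signalling, was highest in PM medium. It was at 107 and 279 CPM in DE(a)-PM, 135 and 263 in APS-PM, 160 and 338 in MPS-PM and 203 and 341 in PPS-PM. In DE(b) it was at 0.0985 and 0.349 CPM after DE(a), 0.386 and 0.197 after APS, 1.57 and 1.75 after MPS and 19.8 and 10.7 after PPS. The PM libraries lay above all others at 48 h, and replicate 2 was 1.68 to 2.59 times replicate 1 in the 4 PM conditions. The summed PS markers TBXT, MIXL1 and EOMES were also higher in replicate 2 of each, from 361 and 761 CPM in DE(a)-PM to 478 and 680 CPM in PPS-PM. TBXT and MIXL1 carried this rise. EOMES was lower in replicate 2 of DE(a)-PM (24.4 and 2.64 CPM), APS-PM (6.93 and 1.32) and MPS-PM (1.51 and 0.446), but not of PPS-PM (0.389 and 0.571). In LM, FZD10 was at 0.255 and 0 CPM after DE(a), 0.309 and 0.161 after APS, 0.465 and 1.95 after MPS and 11.8 and 12.9 after PPS. These lowest levels rest on few reads: 4 and 0 counts in DE(a)-LM, 6 and 3 in APS-LM, 8 and 41 in MPS-LM, 2 and 6 in DE(a)-DE(b). A library with 3 or fewer counts is at the floor. LM minus PM was -8.06 ± 0.36 on the log2 scale (adjusted p = 3.88e-14) and PM exceeded DE(b) by 7.59 ± 0.34 (adjusted p = 5.32e-14), fitted values that depend on how counts near 0 are treated. Where LM had more counts, the mean in PM was 22.1 times that in LM after PPS. LM and DE(b) were not called different (-0.47 ± 0.58, adjusted p = 0.579).
FZD9, its closest relative, was low throughout, at 0.492 to 10.6 CPM, and was the 1 member whose condition means all stayed below 10 CPM. It was at 5.37 to 10.6 CPM in PM, 2.00 to 4.33 in DE(b) and 0.492 to 2.17 in LM. The PM range lay above the others, whereas the LM and DE(b) ranges overlapped. PM exceeded DE(b) by 1.32 ± 0.21 (adjusted p = 2.16e-05), and LM minus PM was -2.58 ± 0.22 (adjusted p = 2.95e-09). FZD9 and FZD10 gave the highest correlation within the family, r = 0.790 over 17 condition means.

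FZD4, which also serves as the receptor of the non-Wnt ligand norrin, was highest in LM medium. It was at 154 and 273 CPM in DE(a)-LM, 188 and 226 in APS-LM, 124 and 179 in MPS-LM and 97.4 and 110 in PPS-LM. In PM it was at 9.57 to 20.7 CPM and in DE(b) at 25.4 to 47.3 CPM. The 3 ranges were apart. LM exceeded PM by 3.65 ± 0.15 (adjusted p = 9.54e-15), DE(b) by 2.34 ± 0.14 (adjusted p = 5.55e-12) and the 24 h mean by 1.88 ± 0.14 (adjusted p = 1.32e-10). MPS-24h, at 124 and 129 CPM, already lay at the level of MPS-LM.

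FZD7, the main Frizzled of hPSCs, was high again in DE(b) medium. It was at 388 and 510 CPM there after DE(a), 368 and 446 after APS, 459 and 555 after MPS and 490 and 489 after PPS, a range that overlapped the 487 and 551 CPM of the control. Both APS-DE(b) libraries and replicate 1 of DE(a)-DE(b) and MPS-DE(b) lay below both control libraries. DE(b) was not tested against the control. PPS cells had 20.2 and 21.6 CPM 24 h earlier. DE(b) exceeded the 24 h mean by 2.40 ± 0.13 (adjusted p = 2.42e-12), and PM and LM differed from DE(b) by -2.01 ± 0.13 and -2.68 ± 0.13 (adjusted p = 2.19e-11 and 2.79e-13). In PM, FZD7 was at 249 and 160 CPM after DE(a) and 53.7 and 54.7 after PPS, while in LM it was at 132 and 161 CPM after DE(a) and at 38.3 and 40.9 CPM after PPS. PM was called above the 24 h mean (0.40 ± 0.13, adjusted p = 0.0125), a call lost without APS-PM replicate 1 (0.0583).
FZD2 was highest in PM, at 29.9 to 97.5 CPM, against 18.2 to 37.2 in DE(b) and 13.0 to 60.5 in LM. The ranges overlapped. PM was above DE(b) by 1.05 ± 0.17 (adjusted p = 1.97e-05) and LM differed from PM by -0.73 ± 0.17 (adjusted p = 0.000988), and all 3 media were above the 24 h mean, by 1.60 to 2.65. FZD1 was highest in LM, at 22.0 to 42.3 CPM against 6.57 to 18.6 in PM and 6.07 to 13.6 in DE(b), with LM above every library of the other media. LM exceeded PM by 1.35 ± 0.17 (adjusted p = 1.22e-06) and DE(b) by 1.75 ± 0.18. The lower FZD1 level of DE(b) against 24 h (-0.51 ± 0.18, adjusted p = 0.0204) was lost without any of 4 libraries: replicate 1 of DE(a)-24h or APS-DE(b) (adjusted p = 0.0522 and 0.0525) and replicate 2 of APS-24h or MPS-24h (0.0617 and 0.0726).

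FZD3 and FZD6 are known above all for planar cell polarity. FZD3 moved least of the family: it was at 50.6 to 76.2 CPM in PM, 37.4 to 56.3 in DE(b) and 30.3 to 51.4 in LM. PM exceeded DE(b) by 0.36 ± 0.08 (adjusted p = 0.00106), and LM differed from PM by -0.58 ± 0.08 (adjusted p = 3.79e-06). The smaller LM differences, -0.23 ± 0.08 against both DE(b) and 24 h (adjusted p = 0.0310 and 0.0197), were less firm. Against DE(b) the call was lost without replicate 1 of APS-DE(b), MPS-DE(b), PPS-DE(b) or MPS-LM, or replicate 2 of DE(a)-DE(b), DE(a)-LM, APS-LM or PPS-LM, with adjusted p from 0.0539 to 0.0897. Against 24 h it was lost without replicate 1 of PPS-24h or replicate 2 of DE(a)-24h, APS-24h, DE(a)-LM or APS-LM (0.0522 to 0.0854). Both calls were also lost with no filter on low counts (0.0879 and 0.0797) and with only the libraries compared (0.0571 and 0.0635).
FZD6 was at 13.8 to 36.3 CPM in all DE(b) and PM libraries. In LM it was at 19.6 and 18.2 CPM after DE(a), 20.5 and 16.5 after APS, 25.0 and 39.7 after MPS and 105 and 115 after PPS. The PPS-LM libraries stood above all others. LM exceeded DE(b) by 0.85 ± 0.09 (adjusted p = 1.35e-07) and PM by 0.69 ± 0.09 (adjusted p = 2.66e-06).

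The full design also asked whether the day 1 treatment left a trace in the receptors at 48 h. Among the 4 day 1 treatments, an F test called 4 of 10 genes in DE(b) (background 16.6%), 4 in PM (background 7.47%) and 7 in LM (background 19.6%). The count in DE(b) was 7 with no filter, and that in PM was 0 when the PM libraries were fitted alone (adjusted p from 0.0626 to 0.115). A test of the interaction, that is of whether the day 1 effect differed between the 3 media, called 5 (background 13.1%): FZD5 (adjusted p = 3.68e-06), FZD6 (9.19e-05), FZD10 (0.000322), FZD7 (0.000626) and FZD2 (0.00948). The FZD2 call was lost without PPS-DE(b) replicate 1 (adjusted p = 0.0580).

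**Figure D4:**
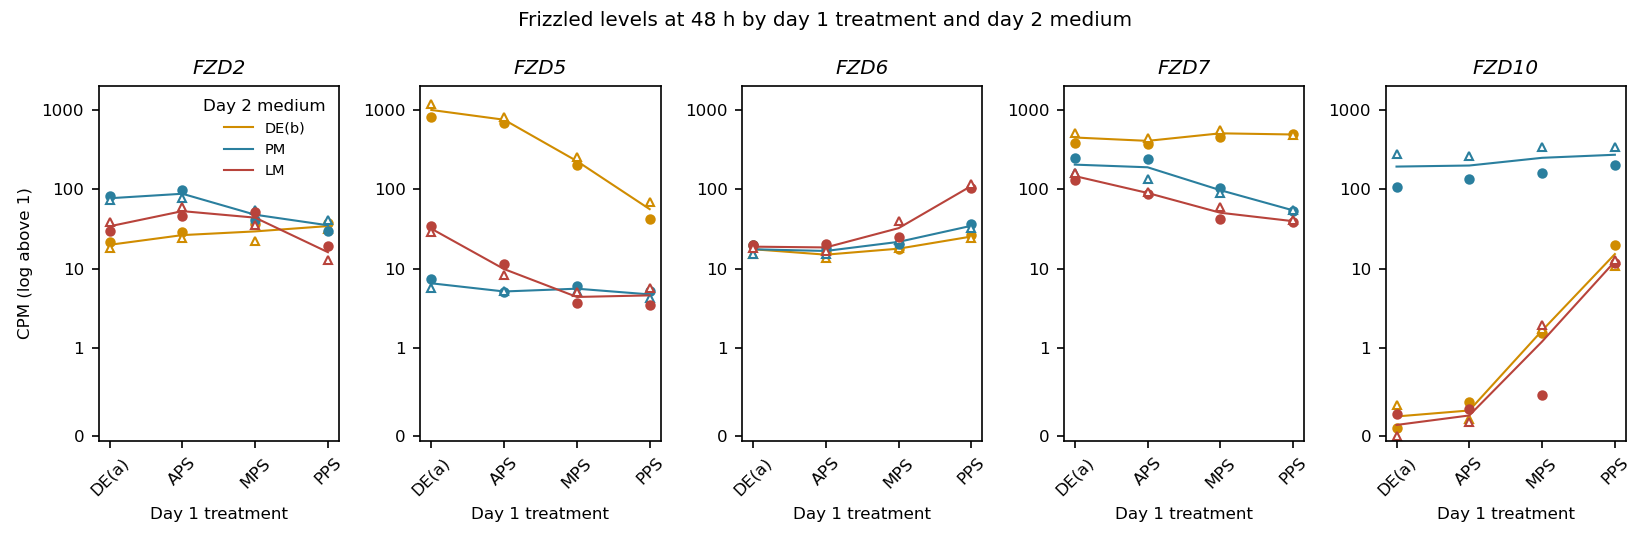
CPM (vertical axis, log scale above 1 CPM and linear below) of the 5 genes called in the interaction test, at 48 h after each day 1 treatment (horizontal axis), with lines through the means of the 2 libraries for DE(b), PM and LM medium, circles for replicate 1 and triangles for replicate 2. FZD5 falls from DE(a) to PPS in DE(b), from 813 and 1183 to 42.7 and 69.6 CPM, but lies between 4.28 and 7.34 CPM throughout PM, and FZD6 stands out in PPS-LM at 105 and 115 CPM.

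In DE(b), no gene was called between APS-DE(b) and the standard DE(a)-DE(b) (background 0.469%; over all genes 1480 had an unadjusted p under 0.05), and the other tools called 0, except 1 with no filter. MPS-DE(b) differed from the standard in 1 gene (background 5.59%), FZD5, by -2.14 ± 0.26 (adjusted p = 1.36e-05). DESeq2 also called FZD10 (adjusted p = 0.00526), and with no filter both FZD10 and FZD8 were added, 3 calls in all. PPS-DE(b) differed in 4 (background 17.4%): FZD10 was higher by 6.16 ± 0.79 and FZD5 differed by -4.11 ± 0.28 (adjusted p = 2.84e-09). FZD8 differed by -2.26 ± 0.33 (adjusted p = 4.75e-05) and FZD6 was higher by 0.57 ± 0.19 (adjusted p = 0.0382). The FZD6 call was lost without either PPS-DE(b) library (adjusted p = 0.210 and 0.0830) or DE(a)-DE(b) replicate 2 (0.325), and so was its F test in DE(b) without either PPS-DE(b) library (0.219 and 0.0791) or APS-DE(b) replicate 2 (0.0688). FZD10 in DE(a)-DE(b) rests on 2 and 6 counts against 413 and 176 in PPS-DE(b). Markers of paraxial mesoderm moved with it: the sum of TBX6, MSGN1 and CDX2 was 80.6 and 73.6 CPM in PPS-DE(b) against 2.27 and 1.92 in DE(a)-DE(b), where MSGN1 and CDX2 were at 0. Their part in the FZD10 difference was not tested. FZD7 was not called in DE(b) (F test, adjusted p = 0.783), with log2 differences from the standard between -0.13 and 0.18 and SE of 0.25.
In PM, no gene was called between DE(a)-PM or MPS-PM and the standard APS-PM (backgrounds 0.0559% and 0.447%; 818 and 1101 genes of all tested had an unadjusted p under 0.05). The other settings called 0 for DE(a)-PM. For MPS-PM they called 0 to 2, FZD7 under DESeq2 (adjusted p = 0.0218) and FZD7 and FZD2 with no filter, and 1 without APS-PM replicate 2. PPS-PM differed in 4 genes (background 5.25%). FZD7 differed by -1.79 ± 0.26 (adjusted p = 0.000158) and FZD6 was higher by 1.07 ± 0.19 (adjusted p = 0.00110). FZD8 (-1.47 ± 0.39, adjusted p = 0.0276) and FZD2 (-1.30 ± 0.33, adjusted p = 0.0210) were lower. In a fit of just the APS-PM and PPS-PM libraries none of the 4 passed, with adjusted p from 0.0621 to 0.230. FZD8 was also lost without APS-PM replicate 1 (0.281) or PPS-PM replicate 2 (0.267), and FZD2 without APS-PM replicate 1 (0.175) or either PPS-PM library (0.157 and 0.0559). In the F test within PM, the FZD8 call (adjusted p = 0.0176) was lost without either PPS-PM library (0.0570 and 0.276) and the FZD2 call (0.0389) without any of DE(a)-PM replicate 1, MPS-PM replicate 1 or either library of APS-PM or PPS-PM (0.0533 to 0.184). FZD10, which the day 1 treatments had spread from 1.77 to 229 CPM at 24 h, showed no called difference in PM (F test, adjusted p = 0.925), with log2 differences from APS-PM of -0.04 to 0.47 and SE of 0.45.
In LM, DE(a)-LM differed from the standard MPS-LM in 4 genes (background 14.4%). FZD5 was higher by 2.73 ± 0.28 (adjusted p = 8.98e-07), at 34.5 and 29.2 CPM against 3.66 and 5.13, and FZD7 by 1.42 ± 0.26 (adjusted p = 0.000471). Endoderm markers moved with both: the sum of SOX17, FOXA2 and CXCR4 was 135 and 102 CPM in DE(a)-LM. In MPS-LM it was 0.237 and 3.80 CPM, with SOX17 at 0. Pluripotency markers were higher as well. POU5F1, NANOG and SOX2 summed to 81.4 and 60.3 CPM in DE(a)-LM against 14.4 and 20.1 in MPS-LM. The part of either set of markers in these differences was not tested. FZD6 differed by -0.90 ± 0.19 (adjusted p = 0.00184, and 0.129 without MPS-LM replicate 2). FZD10 was called lower (adjusted p = 0.0449) on 4 and 0 counts against 8 and 41, and the call was lost without either DE(a)-LM library (0.0648 and 0.296) or MPS-LM replicate 2 (0.587).
APS-LM differed in 2 (background 3.79%), with FZD5 higher by 1.1 ± 0.29 (adjusted p = 0.0318) and FZD6 differing by -0.87 ± 0.19 (adjusted p = 0.00969). Neither passed with only the libraries compared (0.199 and 0.191). FZD5 was lost without APS-LM replicate 1 (0.380) or either MPS-LM library (0.184 and 0.0859), and FZD6 without either APS-LM library (0.0547 and 0.0575) or MPS-LM replicate 2 (0.417).
PPS-LM differed in 4 (background 5.6%). FZD6 was higher by 1.74 ± 0.19 (adjusted p = 4.11e-06), a call kept whichever library was left out. FZD10 was higher by 3.26 ± 0.60 (adjusted p = 0.00158, and 0.0538 without MPS-LM replicate 1). FZD8 differed by -1.59 ± 0.33 (adjusted p = 0.00440, and 0.0739 without PPS-LM replicate 2) and FZD2 by -1.45 ± 0.34 (adjusted p = 0.0111), which was lost without MPS-LM replicate 1 (0.132) or PPS-LM replicate 2 (0.201). The F test within LM also called FZD4 (adjusted p = 0.0334), a call lost without either PPS-LM library (0.226 and 0.115) or APS-LM replicate 2 (0.0705). In the same test FZD8 (0.00420) was lost without either PPS-LM library (0.0571 and 0.0785) and FZD2 (0.00431) without PPS-LM replicate 2 (0.0819).
Summed amnion markers were highest in PPS-LM, where FZD6 and FZD10 were also highest within LM. In DE(a)-LM the sum was also above that of MPS-LM, whereas FZD6 and FZD10 were called lower. Both of these calls were lost without MPS-LM replicate 2, and that of FZD10 rested on 4 and 0 counts against 8 and 41. The 6 markers TFAP2A, GATA3, ISL1, VTCN1, GABRP and IGFBP3 were all listed, and their summed level was 1042 and 1156 CPM in PPS-LM, against 106 and 153 in MPS-LM, 102 and 118 in APS-LM and 259 and 335 in DE(a)-LM. In PM it was 1.66 to 13.7 CPM and in DE(b) 2.98 to 25.1 CPM. IGFBP3 alone gave 709 and 697 CPM in PPS-LM, VTCN1 was at 5.77 and 9.74 CPM there and at most 0.334 CPM in the other LM libraries, and GABRP was at 31.8 and 51.9 CPM against at most 5.40. GATA3 did not single out PPS-LM, at 107 and 136 CPM there and 128.5 and 140 CPM in DE(a)-LM. TFAP2A was at 113 and 167 CPM in PPS-LM, 55.1 and 88.2 in DE(a)-LM and 30.6 and 35.4 in MPS-LM. ISL1 was at 75.1 and 94.8, 42.6 and 59.4, and 10.8 and 27.5 CPM in the same order. The summed paraxial markers were at 81.4 and 76.6 CPM in PPS-LM and 32.5 and 45.2 CPM in MPS-LM. The part of these markers in the FZD6 and FZD10 levels of PPS-LM was not tested.

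The rest of the pathway was summarised through 7 lists of Wnt genes in 3 comparisons. For PPS-24h against MPS-24h, 2.79% of all genes tested were called higher and 3.35% lower. Called lower were 2 of 11 co-receptors and other receptors, 2 of 8 tested genes of Frizzled turnover and 2 of 14 antagonists. The antagonist list holds the membrane proteins APCDD1, KREMEN1 and KREMEN2 beside secreted ones. Of 17 ligands 1 was higher, WNT3A, a canonical ligand of the PS (2.59 ± 0.36, adjusted p = 0.000105). Of 10 planar cell polarity genes 1 was higher, CELSR2. None of 8 feedback targets was called, and none of 12 genes in the cytoplasmic list, which also holds the nuclear factors TCF7L1 and TCF7L2. The largest falls were in CER1 (-9.13 ± 0.95), LGR5 (-2.64 ± 0.40) and ROR2 (-1.73 ± 0.21). CER1, placed in the antagonist list, is a secreted antagonist of Nodal and BMP, LGR5 an R-spondin receptor and ROR2 a receptor of WNT5A.
For PM against DE(b), 21.6% of all genes were higher and 21.4% lower. Feedback targets were called higher in 6 of 8 and lower in none, with a median log2 difference of 1.63, against 0.01 over all genes, and LEF1, a nuclear partner of beta-catenin, rose by 5.92 ± 0.19. In Frizzled turnover 4 of 8 were higher and 2 lower. RSPO3, an R-spondin, was at 358 to 562 CPM in the PM condition means and 0.360 to 84.9 in DE(b) (6.41 ± 0.28). Antagonists were higher in 7 of 14 and lower in 5, led by DKK1 (4.43 ± 0.25) and CER1 (-16.82 ± 0.59, with at most 0.376 CPM in PM). Ligands were higher in 6 of 17, with WNT3A first (6.09 ± 0.23), and lower in 5, with WNT3 first (-3.95 ± 0.49). Co-receptors were higher in 2 of 11 and lower in 6, with GPC3, a glypican, rising by 4.00 ± 0.17 and ROR1 falling by 2.13. In the cytoplasmic list 4 of 12 were lower, the nuclear factor TCF7L1 most (-2.24 ± 0.12). Polarity genes were higher in 2 of 10 (PRICKLE2, 2.52 ± 0.14) and lower in 5 (VANGL1, -1.25 ± 0.07).
For LM against PM, 21% of all genes were called in each direction. Feedback targets were lower in 7 of 8, SP5 most (-5.66 ± 0.18), and higher in 1, BAMBI, which is also a target of BMP signalling (3.98 ± 0.15). The median of the list was -1.68, with 0.00 over all genes. In Frizzled turnover 3 of 8 were higher and 5 lower: RSPO3 fell to 2.29 to 7.82 CPM in the LM means (-6.86 ± 0.27), and RSPO2 rose (9.37 ± 0.68), from at most 0.0427 CPM in PM to between 0.239 and 144 CPM in LM. Antagonists were lower in 9 of 14, DKK4 most, which was at 0 CPM in LM, and higher in 2 (SFRP2, 0.80 ± 0.13). Ligands were higher in 7 of 17 and lower in 6, WNT3A falling by 6.34. Among co-receptors 4 of 11 were higher and 5 lower. The largest rise was in ADGRA2, a cofactor of Frizzled for WNT7 ligands (7.77 ± 0.35), and the largest fall in GPC3 (-3.60 ± 0.16). In the cytoplasmic list 5 of 12 were higher, the nuclear factor TCF7L2 most (2.13 ± 0.13), and 1 was lower (AXIN1, -0.36 ± 0.14, adjusted p = 0.0424). Polarity genes were higher in 2 of 10, CELSR2 most (1.21 ± 0.15), and lower in 5, DAAM2 most (-1.84 ± 0.19).

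The genes whose pattern was most like that of each Frizzled were found by Pearson's r of log2(CPM + 1) over the 17 condition means among the 12263 genes that reached 10 CPM on average in one condition or more. These are descriptions over points that share libraries. FZD10 was close to SKAP2 (r = 0.974), and FZD5 was most like ENSA and TMEM63A (both 0.970). FZD6 was most like HOXC8 (0.967) and EVL (0.938). HOXC8, like FZD6, was highest in PPS-LM, at 84.2 CPM.
FZD8 was nearest to NEK7 (0.942) and SKIDA1 (0.932), both highest in APS-DE(b). FZD1 was nearest to TBX3 (0.933) and AHNAK (0.922), both highest in PPS-LM and lowest in the control, and FZD2 to TXN2 (0.922) and POGLUT2 (0.902). FZD7 was nearest to TGIF1 (0.912) and OTX2 (0.905), a transcription factor at 335 CPM in DE(a)-DE(b) and 0.640 CPM in PPS-LM. FZD4 was close to SAMD11 (0.908), and FZD3 had the lowest values, with NECTIN1 (0.871) and KAT14 (0.862).

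Promoter sequences of RefSeq (GRCh38.p14) were matched for 5 of the 10 genes, FZD1, FZD4, FZD5, FZD8 and FZD9. Those of FZD5 and FZD8 are printed because both genes were highest in DE(b) medium and at most 8.33 CPM in PM, and that of FZD4 because it was highest in LM. Each is the 250 bases before the gene's start, on the gene's strand, with each GC box (GGGCGG, or CCGCCC for the other strand) in capitals. They lie at chr2:207769907-207770156 for FZD5, chr10:35642297-35642546 for FZD8 and chr11:86955396-86955645 for FZD4, all on the minus strand.
FZD5: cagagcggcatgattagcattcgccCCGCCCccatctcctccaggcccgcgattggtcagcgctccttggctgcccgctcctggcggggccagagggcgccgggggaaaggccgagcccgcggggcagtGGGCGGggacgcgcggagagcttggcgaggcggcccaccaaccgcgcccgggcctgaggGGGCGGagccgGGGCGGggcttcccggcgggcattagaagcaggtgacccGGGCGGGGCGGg
FZD8: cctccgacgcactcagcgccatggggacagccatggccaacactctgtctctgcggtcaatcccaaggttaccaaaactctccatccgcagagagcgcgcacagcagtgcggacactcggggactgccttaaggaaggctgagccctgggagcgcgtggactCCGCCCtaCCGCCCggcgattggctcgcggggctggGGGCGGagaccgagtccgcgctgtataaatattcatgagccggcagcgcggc
FZD4: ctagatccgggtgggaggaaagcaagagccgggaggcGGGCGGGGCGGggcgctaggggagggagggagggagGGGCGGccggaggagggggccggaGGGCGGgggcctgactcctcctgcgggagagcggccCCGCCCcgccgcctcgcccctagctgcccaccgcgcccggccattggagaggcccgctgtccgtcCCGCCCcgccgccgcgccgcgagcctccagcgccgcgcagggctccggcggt
GC content was 76.8% in the FZD5 window, 65.2% in that of FZD8 and 80.8% in that of FZD4. The median over 35116 promoters was 58%. GC boxes, some of them overlapping, were found 6 times before FZD5, 6 times before FZD4 and 3 times before FZD8, and 42.6% of all promoters held at least 1. A further 6 motifs were searched on both strands: CTTTGAT and CTTTGTT for TCF/LEF, TCACACC for T-box, TGTTTAC for FOX, AGATAA for GATA and GTCTAGA for SMAD factors. They occurred in 2.26%, 4.50%, 2.76%, 2.98%, 9.17% and 1.20% of all promoters. These letters were not in any of the 5 Frizzled windows, which says nothing of binding elsewhere.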

How the data were processed

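RNA of ESI017 cells was sequenced from 34 libraries, 2 for each of 17 conditions. Per the labels, poly(A) RNA was made into strand-specific libraries and read in pairs. The authors quantified reads with Salmon 1.10.2 against GRCh38 and worked in R 4.4.2. The deposited values are estimated counts per gene, without normalization, replicate 1 and replicate 2 in separate tables. All columns matched a sample. CPM was computed here from library totals, and counting intervals would cover counting error only.

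Rounded estimated counts were fitted with edgeR 4.0.16 under R 4.3.3. The fit used TMM factors, the 17895 of 37951 genes that filterByExpr retained for the conditions, a separate mean for each condition, quasi-likelihood tests with 17 residual degrees of freedom, and Benjamini-Hochberg adjustment over all genes tested, called at 0.05. A medium was compared through the mean of its 4 conditions. The SE of a log2 difference is its size divided by the square root of the F value. Scripts were tested on simulated data. Alternatives were DESeq2 1.42.0, RLE factors, a block for the replicate number, omission of the filter, a fit of just the libraries in a comparison, and leaving out each library.

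The named genes are the 10 members, in each pathway list the called gene with the largest rise and fall among those reaching 10 CPM in a condition mean, and the 2 genes most like each member with a condition mean of 10 CPM or more (all but FZD9), of which 1 each for FZD4 and FZD10 is not reported here. Members and lists were chosen with earlier results of these data known. Tables were drawn up in Python 3.11.15 with pandas 2.3.3.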

Additional observations from a re-analysis of the deposited data

Results flagged for a closer look

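For 5 of the 10 genes (background 13.1% of all genes tested) the effect of the day 1 treatment differed between the day 2 media, by edgeR's F test of the interaction over the 12 conditions at 48 h. FZD5 (adjusted p = 3.68e-06) went from 813 and 1183 CPM after DE(a) to 42.7 and 69.6 after PPS in DE(b), and from 34.5 and 29.2 to 3.47 and 5.74 in LM, against 7.34 and 5.72 to 5.19 and 4.28 in PM. FZD6 (adjusted p = 9.19e-05) went from 19.6 and 18.2 CPM after DE(a) to 105 and 115 after PPS in LM. It went from 19.7 and 15.4 to 26.6 and 24.1 in DE(b), and from 19.8 and 15.3 to 36.3 and 33.0 in PM. FZD10 (adjusted p = 0.000322) was at 107 and 279 CPM after DE(a) and 203 and 341 after PPS in PM. It was at 0.0985 and 0.349 against 19.8 and 10.7 in DE(b), and at 0.255 and 0 against 11.8 and 12.9 in LM. Its levels after DE(a) rest on 2 and 6 counts in DE(b) and 4 and 0 in LM. FZD7 (adjusted p = 0.000626) went from 249 and 160 CPM after DE(a) to 53.7 and 54.7 after PPS in PM. It fell in LM too, from 132 and 161 to 38.3 and 40.9, and went from 388 and 510 to 490 and 489 in DE(b). FZD2 (adjusted p = 0.00948) went from 81.9 and 72.2 CPM to 29.9 and 40.4 in PM and from 21.7 and 18.2 to 37.2 and 31.5 in DE(b). In LM it went from 29.7 and 38.5 to 19.2 and 13.0 CPM. Without PPS-DE(b) replicate 1 the FZD2 result had an adjusted p of 0.0580.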

How the results depend on the processing

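Among 270 tests of a member in a comparison, 138 were called, and no direction of a called value reversed under any alternative run. RLE factors added 1 call, DESeq2 added 9 and the replicate block added 10, and none of these 3 lost any. No filter added 25 and lost 4. Fitting only the libraries compared lost 21 and added 5. Leaving out 1 library ended 35 calls under at least 1 omission.

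Counts of called members moved by over 1.5 times as follows. For APS-24h against DE(a)-24h, 2 became 5 with no filter and 1 with only the libraries compared. For PPS-24h against MPS-24h, 3 became 6 with no filter, 6 with the replicate block and 5 with DESeq2. The block added FZD10 (adjusted p = 0.0218), FZD1 (0.0197) and FZD6 (0.0409) there. The labels do not say what same-numbered replicates share. Over 136 pairs of conditions, deviations of same-numbered replicates correlated at -0.172 to 0.531 (median 0.142, over 0.1 in 89). For APS-DE(b) against DE(a)-DE(b), 0 became 1 with no filter, and for MPS-DE(b), 1 became 3 with no filter and 2 with DESeq2. For MPS-PM against APS-PM, 0 became 2 with no filter and 1 with DESeq2. PPS-PM against APS-PM went from 4 to 0 and the F test within PM from 4 to 0 with only the libraries compared. DE(a)-LM against MPS-LM went from 4 to 2 and APS-LM from 2 to 0 in that fit, and APS-LM to 4 with no filter and 4 with DESeq2. The F test within DE(b) went from 4 to 7 with no filter. The cause was not tested.

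Single calls ended with only the libraries compared for FZD9 in DE(a)-24h against the control (adjusted p = 0.0878), FZD8 in APS-24h against DE(a)-24h (0.176), FZD7 and FZD2 in MPS-24h against APS-24h (0.0854 and 0.101), FZD2 in PPS-24h against MPS-24h (0.258), FZD6 in PPS-DE(b) (0.107) and in DE(a)-LM (0.0880), FZD6 in the F test at 24 h (0.0759) and FZD4 in that within LM (0.163). No filter also ended FZD9 in DE(a)-24h (0.0525) and FZD6 in PPS-DE(b) (0.0941).

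With 1 library left out, counts against the control were 2 to 3 for DE(a)-24h, 4 to 6 for APS-24h, 8 to 9 for MPS-24h and 8 to 10 for PPS-24h. Between neighbours they were 0 to 2, 4 to 6 and 2 to 3 in the order of the report. Against 24 h they were 7 to 8 for DE(b), 7 to 8 for PM and 8 to 10 for LM, and between media 8 to 9 for PM and DE(b), 7 to 8 for LM and DE(b), and 10 for LM and PM. Against the standard they were 0 for APS-DE(b), 1 for MPS-DE(b), 3 to 4 for PPS-DE(b), 0 for DE(a)-PM, 0 to 1 for MPS-PM, 2 to 4 for PPS-PM, 2 to 4 for DE(a)-LM, 0 to 1 for APS-LM and 2 to 4 for PPS-LM. The F tests gave 7 to 8 at 24 h, 3 to 4 in DE(b), 2 to 4 in PM and 4 to 8 in LM, and the interaction 4 to 6. A condition left with 1 library is assumed to vary like the others. With 2 libraries a condition and FZD10 at 0 to 8 counts in several, small differences of low genes were not detectable at this depth.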
